A study of Mus musculus with 16 samples.

Results

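The genes described are 39 that encode subunits of the mouse proteasome, its activators and its maturation factor Pomp, measured in C2C12 myotubes with and without electrical stimulation. They were chosen by gene symbol, with no expression threshold. The measured value that the choice used was the quantification status in the deposited table, by which genes too deeply covered for the software were left out, and this removed 0 of the 39. The family was proposed with results of the same comparison known, so the fold changes and calls below describe these genes and are not independent support for a change in the family. Of 48432 gene identifiers in the table, 13987 passed a filter on low counts, and 37 of the 39 genes were among them. The immunoproteasome genes Psmb8 and Psmb9 were not.

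C2C12 is an established mouse myoblast line whose cells fuse into contractile myotubes when serum is lowered. All cultures were differentiated for 5 days, and the controls were myotubes that received no pulses. The EPS (electrical pulse stimulation) myotubes received pulses of 6 ms at 1 Hz in a field of 2.75 V/mm, a duty cycle of 0.6%, with the polarity of the field switched at 0.5 Hz. The sources used here do not give the length of the stimulation. Total RNA was sequenced from 4 control and 4 EPS replicates, each loaded on 2 lanes, which gives 16 deposited samples and 8 libraries. Whether each replicate was a culture of its own is not stated in the labels. The p-values therefore measure the spread between these 8 libraries, part of which may be technical.

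The proteasome is the protease complex that breaks down proteins tagged with ubiquitin. Its core particle is a barrel of stacked rings: the outer alpha rings form the gate and docking surface, and the inner beta rings carry the proteolytic sites. A regulatory particle, made of a base with a ring of ATPases and a lid, binds ubiquitinated substrates, removes the ubiquitin and unfolds the protein into the core. In skeletal muscle this system degrades contractile proteins and is known for its part in muscle wasting and remodelling.

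Levels are given as CPM, the fragments of a gene in counts-per-million of its library size after TMM scaling, which corrects for composition. Sequencing depth was between 12626925 and 20725697 fragments in 7 libraries and 354490 in control replicate 2. A count of 3 fragments equals 8.51 CPM in that library and between 0.138 and 0.240 CPM in the others, so its values for single genes are imprecise. On the first principal component of log2 CPM, which held 68.4% of the variance, control replicate 2 stood apart from the other 7 libraries. On the second, which held 20.2%, EPS replicates 1 and 2 lay at 46.4 and 88.1, and the other 6 libraries lay between -45.2 and 1.63. The 8 myotube markers examined, among them muscle creatine kinase and skeletal actin, summed to between 21783 and 24782 CPM in the controls and between 12919 and 18445 CPM in the EPS libraries. All 8 were fitted lower in EPS, and 0 of 8 passed the test (5 of 8 with a replicate block). In bulk RNA, fewer cells of a type and less RNA per cell cannot be told apart. The part of this difference in the proteasome values was not tested. The 8 immune markers summed to between 2.86 and 3.89 CPM in the 3 deep controls, to 8.51 CPM in control replicate 2, where this stands for 3 fragments, and to between 2.95 and 29.8 CPM in the EPS libraries, with Adgre1 at 0 in all 8 libraries.

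Most proteasome genes stood at higher CPM in the EPS libraries. The fitted log2 fold change, EPS over control, was above 0 for 32 of the 37 tested genes and below 0 for 5. Its median over the 37 was 0.39, with a range from -0.32 to 1.21, beside a median of 0.01 over all 13987 genes tested. In 19 of the 37 genes all 4 EPS libraries lay above all 4 controls, which was true of 9.32% of all genes tested. In 0 of the 37 did all EPS libraries lie below all controls, against 4.83% of all genes.

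At an adjusted p of 0.05 (edgeR's quasi-likelihood test, Benjamini-Hochberg over all genes tested), 5 of the 37 genes rose and 0 fell. Over all genes, 322 rose (2.30%) and 106 fell (0.758%). The 5 were the core alpha ring genes Psma1, Psma3, Psma5 and Psma7 and the lid gene Psmd11, and 19 of the 37 (51.4%) had an unadjusted p under 0.05, beside 18.5% of all genes tested. Same-numbered control and EPS libraries deviated together, and with the replicate number as a block the same 5 and 9 more rose, 14 in all, and 0 fell. Over all genes that fit called 1023 higher (7.31%) and 668 lower (4.78%). The count without a block rested on single libraries: it was 0 without control replicate 1, 3 or 4 or without EPS replicate 1, 3 without control replicate 2, 4 without EPS replicate 2, and 6 without EPS replicate 3 or without EPS replicate 4. In the fits that gave 0, the count of all genes called higher was between 92 and 111. That count was 283 without control replicate 2, 305 without EPS replicate 2, 427 without EPS replicate 3 and 426 without EPS replicate 4. Without EPS replicates 1 and 2 together 4 members were called, and the median of the 37 was 0.31. Over all genes that fit called 239 higher and 101 lower.

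**Figure D1:**
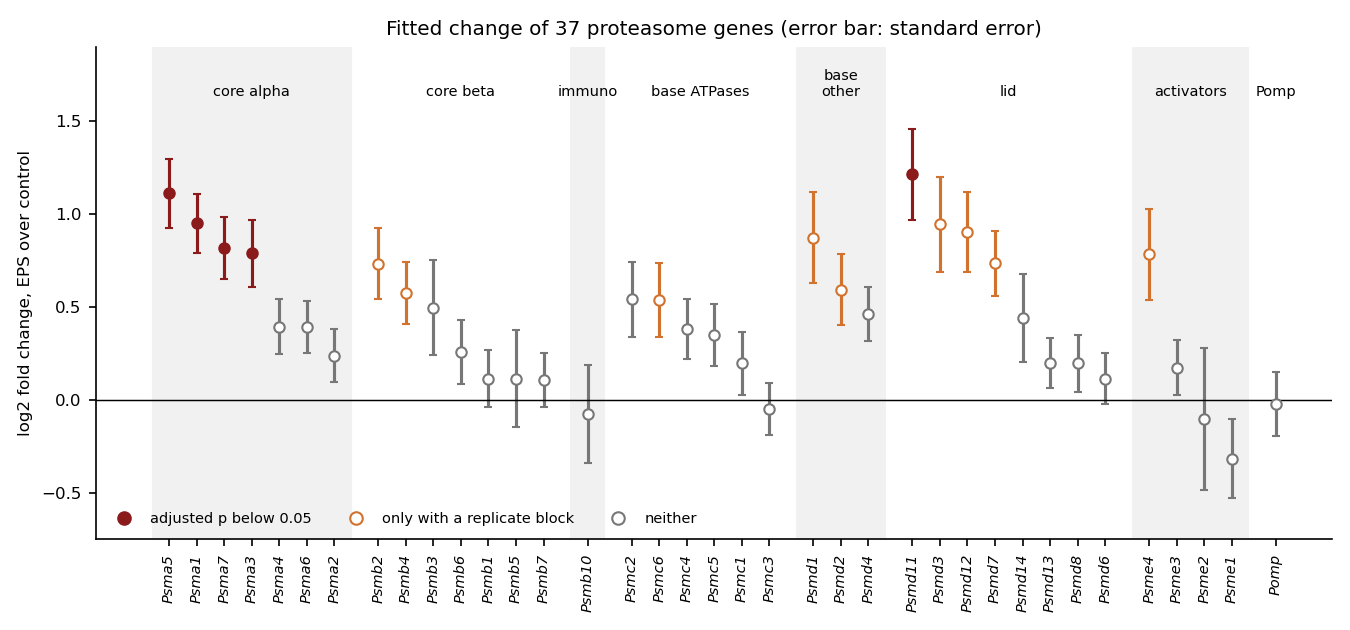
Fitted log2 fold change (vertical axis, EPS over control) of each of the 37 tested genes, in the order of the subcomplexes, with the standard error as bar. Filled points passed an adjusted p of 0.05 in edgeR without a block (5 genes), open orange points with a replicate block and not without it (9 genes), and grey points in neither fit. Fitted values lie below 0 for Psmb10, Psmc3, Psme1, Psme2 and Pomp.

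The alpha ring had the highest median of the subcomplexes. Its 7 genes had a median log2 fold change of 0.79 and a range from 0.24 to 1.11, and 4 of 7 rose, in the fit with and in the fit without the block. Psma5 had the highest fold of the ring. It read 27.5, 22.7, 26.3 and 25.01 CPM in control replicates 1 to 4 and 65.9, 67.4, 46.6 and 44.0 CPM in EPS replicates 1 to 4. The lowest EPS library stood above the highest control by a margin wider than the whole control range, and the log2 fold change was 1.11 (SE 0.19), or 2.16-fold. Psma1 read 60.9, 45.4, 57.5 and 57.7 CPM in the controls and 113, 131, 95.4 and 98.4 CPM in EPS, and its log2 fold change was 0.95 (SE 0.16).

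Psma7 rose as well, with the EPS libraries in another order. Its controls read 80.5, 59.6, 91.5 and 97.5 CPM and its EPS libraries 145, 132, 159 and 160.2 CPM, and its log2 fold change was 0.82 (SE 0.17). Here EPS replicates 3 and 4 were the higher ones, whereas in Psma1 and Psma5 replicates 1 and 2 were. Psma3 was the member nearest to the threshold from inside, at an adjusted p of 0.0443 by edgeR. It read 26.6, 22.7, 22.5 and 26.8 CPM in the controls and 42.7, 55.7, 36.3 and 38.6 CPM in EPS, with a log2 fold change of 0.79 (SE 0.18). A transcript annotated on the opposite strand, 3110056K07Rik, overlaps Psma3, and the strand setting of the counting is not given. It averaged 1.95 CPM in the controls beside 24.6 CPM for Psma3.

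The remaining alpha genes had smaller folds and did not pass the test. Psma2 was the lowest, at 122, 153, 119 and 126 CPM in the controls and 142, 146, 167 and 150.1 CPM in EPS (log2 fold change 0.24, SE 0.14). The shallow control replicate 2 alone overlapped the EPS values of Psma2. Psma4 and Psma6 had log2 fold changes of 0.39 and 0.39, and in each of the pair all EPS libraries lay above all controls. All 7 alpha genes separated from the 3 deep controls in this way, which was true of 1925 of all 13987 genes tested.

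**Figure D2:**
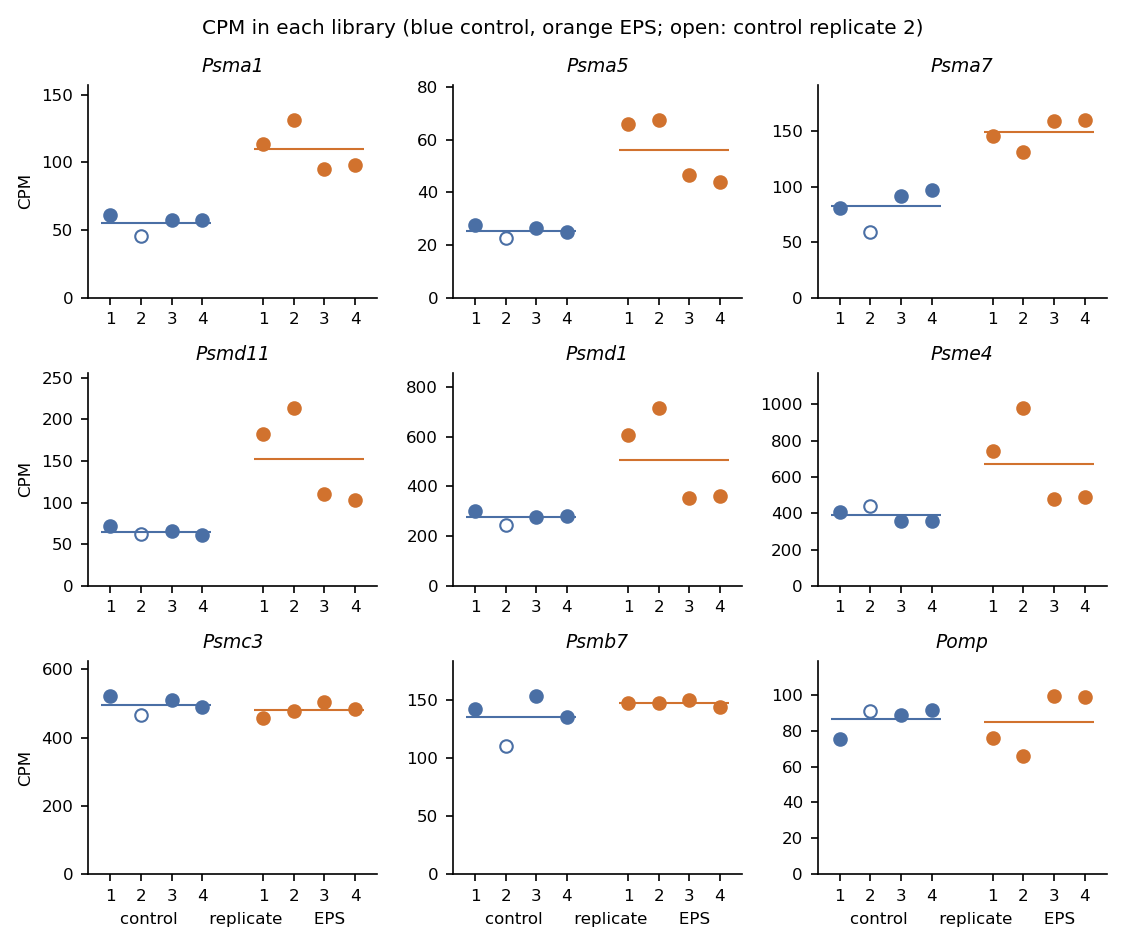
CPM (vertical axis, from 0) of 9 proteasome genes in each library, with replicate numbers on the horizontal axis, controls in blue and EPS in orange, and the group mean as a line. The open circle is control replicate 2, the shallow library. Psma1, Psma5, Psma7, Psmd11, Psmd1 and Psme4 separate the groups, whereas Psmc3, Psmb7 and Pomp overlap.

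The sequences before the starts of 4 of the 5 genes that rose are shown because these genes were higher together. They come from RefSeq's promoter windows on build GRCm38.p6, in which 33 of the 39 genes were matched by symbol. The genes Psmb1, Psmb2, Psmb7, Psmc3, Psmd3 and Psmd7 were not matched. Each stretch runs 5′ to 3′ on the gene's strand within the 250 bases before the start, cut where an annotated exon begins. Psma1 lies at chr7:114276119-114276366 on the minus strand, Psma3 at chr12:70974373-70974620 on the plus strand, Psma5 at chr3:108256676-108256877 on the plus strand and Psmd11 at chr11:80428365-80428614 on the plus strand. Most of the window of Psma7 lies in exons of the neighbour Ss18l1 and is not shown. Capitals mark CCAAT or its reverse complement ATTGG, the motif bound by NF-Y, and CTTCCG, the reverse complement of CGGAAG, a core motif of the ETS family of transcription factors.
Psma1: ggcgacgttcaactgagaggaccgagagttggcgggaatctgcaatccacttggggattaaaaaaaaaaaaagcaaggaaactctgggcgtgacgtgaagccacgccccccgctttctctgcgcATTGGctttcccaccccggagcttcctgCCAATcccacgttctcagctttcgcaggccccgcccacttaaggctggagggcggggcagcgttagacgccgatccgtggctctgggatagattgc
Psma3: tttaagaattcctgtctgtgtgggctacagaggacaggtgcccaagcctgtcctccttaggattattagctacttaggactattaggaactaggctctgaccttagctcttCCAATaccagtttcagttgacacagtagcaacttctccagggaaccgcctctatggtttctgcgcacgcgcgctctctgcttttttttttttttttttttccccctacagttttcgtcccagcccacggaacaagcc
Psma5: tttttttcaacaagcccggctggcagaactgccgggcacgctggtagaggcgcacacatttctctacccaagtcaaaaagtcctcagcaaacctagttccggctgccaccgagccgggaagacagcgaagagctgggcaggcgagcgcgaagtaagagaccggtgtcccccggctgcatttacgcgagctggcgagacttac
Psmd11: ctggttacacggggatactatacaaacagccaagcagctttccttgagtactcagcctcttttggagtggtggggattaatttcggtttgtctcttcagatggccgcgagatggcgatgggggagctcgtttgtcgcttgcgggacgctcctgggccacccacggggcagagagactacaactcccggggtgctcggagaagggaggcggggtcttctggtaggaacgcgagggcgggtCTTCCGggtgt

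In these stretches Psma1 held the CCAAT motif on both strands, Psma3 on the plus strand, Psma5 neither motif and Psmd11 the ETS motif. For the members, a gene counted as holding a motif if any of its windows did. The shares of windows given beside them count each window, so the measures differ. Over the 250 bases of all members with a window, both strands read, CCAAT was present in 12 of 33 genes (36.4%). It was present in 33.8% of all 32851 windows and 35.1% of those of tested genes. CGGAAG was present in 18 of 33 (54.5%), beside 13.6% of all windows and 24.3% of the 12722 windows of tested genes. Of the 5 genes that rose, Psma1, Psma3 and Psma7 held CCAAT, and Psmd11 alone held CGGAAG. The match of Psma7 lies in its window, which is not shown. The antioxidant response core bound by the factors Nfe2l1 and Nfe2l2, TGACNNNGC, was present in 4 of 33 (12.1%). It was present in 10.2% of all windows and 11.7% of those of tested genes. Its looser form TGANNNNGC, which contains it, was present in 11 of 33 (33.3%), beside 35.2% and 36.5%. The heat shock element cores GAANNTTC and TTCNNGAA were each present in 2 of 33 (6.06%). Their shares were 6.69% and 7.17% of all windows, and 4.87% and 5.82% of those of tested genes. None of these last 4 motifs occurred in the windows of the 5 genes that rose. A match describes letters in this window and is not a binding site, and 6 motifs were searched.

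The beta ring, which carries the active sites, had a lower median than the alpha ring: 0.26 over 7 genes, with a range from 0.11 to 0.73. Without control replicate 2 the median of the beta ring was 0.15. It was 0.31 without EPS replicates 1 and 2, and 0.38 in a fit with offsets for transcript length and GC content. The alpha ring had medians of 0.73, 0.56 and 0.71 in the same fits. In 0 of 7 did the change pass the test, and in 2 of 7, Psmb2 and Psmb4, it passed with the replicate block. The difference between the rings was not tested. Psmb2 had the highest fold of the ring. It read 114, 76.6, 104 and 97.6 CPM in the controls and 166, 217, 137 and 144 CPM in EPS. The groups did not overlap, and the log2 fold change was 0.73 (SE 0.19). Psmb4 and Psmb3, at 0.57 (SE 0.17) and 0.50 (SE 0.26), also separated without overlap.

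The catalytic subunits were among the genes with small folds. Psmb5, the chymotrypsin-like site, read 17.7, 5.67, 15.9 and 23.0 CPM in the controls and 18.5, 13.6, 22.1 and 22.2 CPM in EPS. Psmb6, the caspase-like site, read 185, 130.5, 193 and 198 CPM against 200.1, 185, 238 and 232 CPM. Psmb7, the trypsin-like site, read 142, 111, 153 and 136 CPM against 148, 147, 151 and 145 CPM. The groups overlapped for each of them, and the log2 fold changes were 0.11 (SE 0.26), 0.26 (SE 0.17) and 0.11 (SE 0.14). Psmb1, a structural beta subunit, stood at 0.11 (SE 0.15). Nek6 overlaps Psmb7 on the opposite strand and averaged 14.1 CPM in the controls beside 136 CPM for Psmb7.

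The immunoproteasome subunits replace the catalytic beta subunits in immune cells and after interferon. Psmb8, which takes the place of Psmb5, had 2, 0, 1 and 12 fragments in the controls and 2, 0, 1 and 3 in EPS. Psmb9, which takes the place of Psmb6, had 0, 0, 0 and 3 fragments and then 0, 0, 1 and 0. Neither passed the filter, and no fold is given for them. Psmb10, which takes the place of Psmb7, read 7.36, 2.84, 9.20 and 7.45 CPM in the controls and 5.35, 6.49, 8.84 and 8.25 CPM in EPS, with a log2 fold change of -0.08 (SE 0.27) and overlapping groups. On the deposited FPKM scale (fragments scaled by transcript length and library size), Psmb10 made up 2.10 to 3.87% of the sum of Psmb10 and Psmb7 in the controls and 2.21 to 3.76% in EPS. Psmb8 made up at most 1.39% of the sum with Psmb5, and Psmb9 at most 0.041% of the sum with Psmb6, both in control replicate 4.

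The ATPases of the base, Psmc1 to Psmc6, unfold the substrate and push it into the core. Their median log2 fold change was 0.37 (0.16 without EPS replicates 1 and 2), and 5 of 6 were fitted above 0. In 0 of 6 did the change pass the test, and Psmc6 (0.54, SE 0.20) passed with the block. The groups were separate in 1 of 6, Psmc4, and 4 of 6 separated from the 3 deep controls (1925 of 13987 over all genes tested). Psmc2 had the highest fitted value, at 110.4, 119, 94.7 and 108 CPM in the controls and 200.3, 182, 124 and 117 CPM in EPS (0.54, SE 0.20), and EPS replicate 4 fell within the controls. Psmc3 had the lowest, at 520.2, 465, 510.1 and 490.4 CPM against 456, 476, 505 and 484 CPM (-0.05, SE 0.14), with the EPS libraries inside or just under the control range. Slc39a13 overlaps Psmc3 on the opposite strand and averaged 89.0 CPM in the controls. Psmc1, Psmc4 and Psmc5 had log2 fold changes of 0.20, 0.38 and 0.35.

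The other subunits of the base are Psmd1 and Psmd2, large scaffolds that bind ubiquitin shuttle proteins, and Psmd4, a ubiquitin receptor. All 3 separated the groups, with a median log2 fold change of 0.59 (0.34 without EPS replicates 1 and 2). None passed the test, and Psmd1 and Psmd2 did with the block. Psmd1 read 300.1, 244, 278 and 282 CPM in the controls and 605, 714, 352 and 361 CPM in EPS, and its log2 fold change was 0.87 (SE 0.25). Its EPS replicates 1 and 2 stood far above replicates 3 and 4, and without replicates 1 and 2 the log2 fold change was 0.35. Psmd4 read 201, 182, 209 and 192 CPM in the controls and 275, 306, 261 and 243 CPM in EPS, with a narrower spread and a log2 fold change of 0.46 (SE 0.15). The gene Htr2b overlaps Psmd1 on the opposite strand. It fell, with a log2 fold change of -1.32 at an adjusted p of 0.0391 by edgeR, and averaged 11.4 CPM in the controls beside 276 CPM for Psmd1.

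The lid caps the regulatory particle and holds the deubiquitinase Psmd14. Its 8 genes in the set were all fitted above 0, with a median log2 fold change of 0.59 and a range from 0.11 to 1.21. Without EPS replicates 1 and 2 the median was 0.33. In 1 of 8 the change passed the test, Psmd11, and with the block Psmd3, Psmd7 and Psmd12 passed as well. The lid subunit Sem1 was counted with the other proteasome-bound proteins and not in this set. Sem1 was fitted below 0, at -0.34 (SE 0.24, adjusted p = 0.496 by edgeR), with overlapping groups. Without EPS replicates 1 and 2 its log2 fold change was -0.0087. Psmd11, which bridges lid, base and core, had the highest fold of the whole family. It read 71.8, 62.4, 66.1 and 60.6 CPM in the controls and 182, 213, 110.2 and 103 CPM in EPS. All EPS libraries were above all controls, replicates 1 and 2 furthest, and the log2 fold change was 1.21 (SE 0.24), or 2.32-fold. Without EPS replicates 1 and 2 it was 0.69.

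Psmd7, the partner of Psmd14, and Psmd12 were the members just short of the threshold, with adjusted p of 0.0515 and 0.0517 by edgeR and log2 fold changes of 0.73 (SE 0.17) and 0.90 (SE 0.22). Psmd3, a lid scaffold, had a log2 fold change of 0.94 (SE 0.26) at a mean of 134 ± 32.8 CPM (SD, n = 4) in the controls and 263 ± 83.5 CPM in EPS. Psmd14 itself read 115, 213, 116 and 116 CPM in the controls and 199.6, 229, 147 and 158 CPM in EPS. Control replicate 2 lay inside the EPS range, and the log2 fold change of 0.44 (SE 0.24) was 0.66 without that library. The lowest of the lid genes in the set was Psmd6, at 104, 131, 109.8 and 111 CPM against 128, 112, 123 and 124 CPM (0.11, SE 0.14). Psmd8 and Psmd13 stood at 0.20 and 0.20. The processed pseudogene Gm15542 overlaps Psmd13 on the same strand and averaged 46.6 CPM in the controls beside 68.8 CPM for Psmd13, so the split of fragments between them is uncertain. The log2 fold change of Gm15542 was 1.29, with an adjusted p of 0.107 by edgeR.

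Activators cap the core in place of the regulatory particle. Their log2 fold changes differed in sign: -0.32 (SE 0.21) for Psme1, -0.10 (SE 0.38) for Psme2, 0.17 (SE 0.15) for Psme3 and 0.78 (SE 0.24) for Psme4. Psme1 and Psme2 form the interferon-inducible activator. Psme1 read 28.0, 42.6, 33.4 and 30.6 CPM in the controls and 19.4, 21.4, 33.4 and 28.5 CPM in EPS, with the lower values in EPS replicates 1 and 2. Psme2 read 4.33, 0, 5.34 and 6.06 CPM against 3.14, 3.04, 5.89 and 6.22 CPM. Psme2 has the retrocopy Psme2b, which averaged 22.2 CPM in the controls and 19.7 CPM in EPS, so the split of fragments between them is uncertain.

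Psme3, the nuclear activator, read 131, 125, 115 and 128 CPM in the controls and 129, 169, 128 and 136 CPM in EPS, with overlapping groups. Psme4, a large nuclear activator, read 409, 440, 358 and 359 CPM in the controls and 741, 978, 477 and 491 CPM in EPS. The groups of Psme4 did not overlap, and the gene passed the test with the replicate block and not without it. Pomp, the chaperone that completes assembly of the core, read 75.7, 90.8, 89.1 and 91.8 CPM in the controls and 76.2, 65.8, 99.2 and 98.7 CPM in EPS. Its EPS libraries spanned more than the control range in both directions, and its log2 fold change was -0.02 (SE 0.17).

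The 4 EPS libraries did not contribute alike. The median log2 CPM difference of the members from the mean of control replicates 1, 3 and 4 was 0.45, 0.45, 0.31 and 0.28 in EPS replicates 1 to 4, beside 0.00, -0.03, 0.03 and 0.03 over all genes. For the alpha ring it was 0.70, 0.55, 0.53 and 0.61, and for the beta ring 0.13, 0.04, 0.28 and 0.27. For the lid it was 0.86, 0.88, 0.38 and 0.35, and for Psmd1, Psmd2 and Psmd4 together 0.84, 0.87, 0.30 and 0.28. On this scale the lid and the non-ATPase base subunits stood highest in EPS replicates 1 and 2 and the beta ring in replicates 3 and 4. The order of the beta ring turned with offsets for length and GC content, which gave 0.49, 0.64, 0.23 and 0.29. With the same offsets the lid stood at 0.91, 0.89, 0.33 and 0.33, and the non-ATPase base subunits at 0.75, 1.00, 0.26 and 0.27. The alpha ring then stood at 0.65, 0.83, 0.51 and 0.56, so it too was higher in EPS replicates 1 and 2. For the ATPases the values were 0.49, 0.41, 0.27 and 0.21 without offsets and 0.60, 0.58, 0.19 and 0.16 with them.

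**Figure D3:**
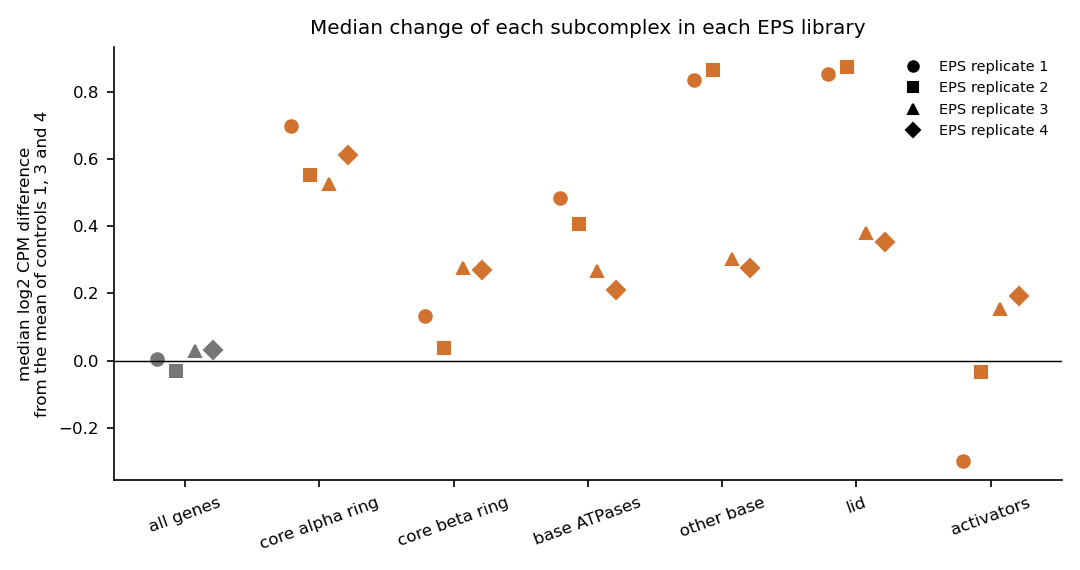
Median log2 CPM difference (vertical axis) of each subcomplex from the mean of control replicates 1, 3 and 4, with 1 point for each EPS library, beside the median of all tested genes in grey. The lid and the other base subunits lie between 0.84 and 0.88 in EPS replicates 1 and 2 and between 0.28 and 0.38 in replicates 3 and 4, whereas the alpha ring lies between 0.53 and 0.70 in all 4. The values shown are without offsets for length and GC content. With offsets the alpha ring was higher in EPS replicates 1 and 2 than in 3 and 4.

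In 20 of the 37 genes EPS replicates 1 and 2 were both above replicates 3 and 4, which was true of 34.2% of all genes tested. The reverse order held in 10 of 37, beside 37.8% of all genes. Transcript length moved with this order. The length implied by the ratio of CPM to FPKM had a median of 1842 bases in the 20 genes and of 1047 bases in the 10. Across the 37 genes, the correlation of the log2 CPM difference with log2 length was 0.34, 0.43, -0.15 and -0.12 in EPS replicates 1 to 4. Across all 13987 genes it was 0.20, 0.20, -0.11 and -0.07. Genes within a library share its depth and composition, so these are descriptions. With offsets for length and GC content in the fit, the median log2 fold change of the 37 was 0.48, beside 0.02 over all genes. The correlation with length across the 37 was then 0.08, 0.15, -0.10 and -0.13 in EPS replicates 1 to 4. The order of the libraries stayed: with offsets the median difference of the members was 0.65, 0.74, 0.28 and 0.25. Without offsets it was 0.45, 0.45, 0.31 and 0.28. The cause of this order was not tested.

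Levels of different genes can be compared per length. On the FPKM scale Psmb6 was the highest in the controls, at 243 ± 24.0 FPKM (SD, n = 4), followed by Psmc3 at 233 ± 35.8 FPKM and Psmd8 at 194 ± 32.3 FPKM. The 14 constitutive core subunits, which the finished particle holds in equal copies, spanned 22.5-fold in control FPKM. The lowest of these were Psma5 at 19.9 ± 2.18 FPKM, Psmb5 at 17.3 ± 5.36 FPKM and Psma3 at 10.8 ± 3.02 FPKM. In EPS, Psma5 stood at 43.7 ± 10.4 FPKM and Psma3 at 19.7 ± 3.799 FPKM. Next to last came Psmb10 at 4.21 ± 1.53 FPKM and Psme2 at 3.53 ± 2.43 FPKM, above the nearly silent Psmb8 and Psmb9. Neighbours in this order overlapped over the control libraries, with the exception of the step from Psma3 down to Psmb10. The overlap of Psme2 with Psmb8 came from the shallow control replicate 2 alone, where Psme2 had 0 fragments. In control replicates 1, 3 and 4 Psme2 read 3.83, 5.10 and 5.18 FPKM and Psmb8 0.057, 0.049 and 0.30 FPKM.

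**Figure D4:**
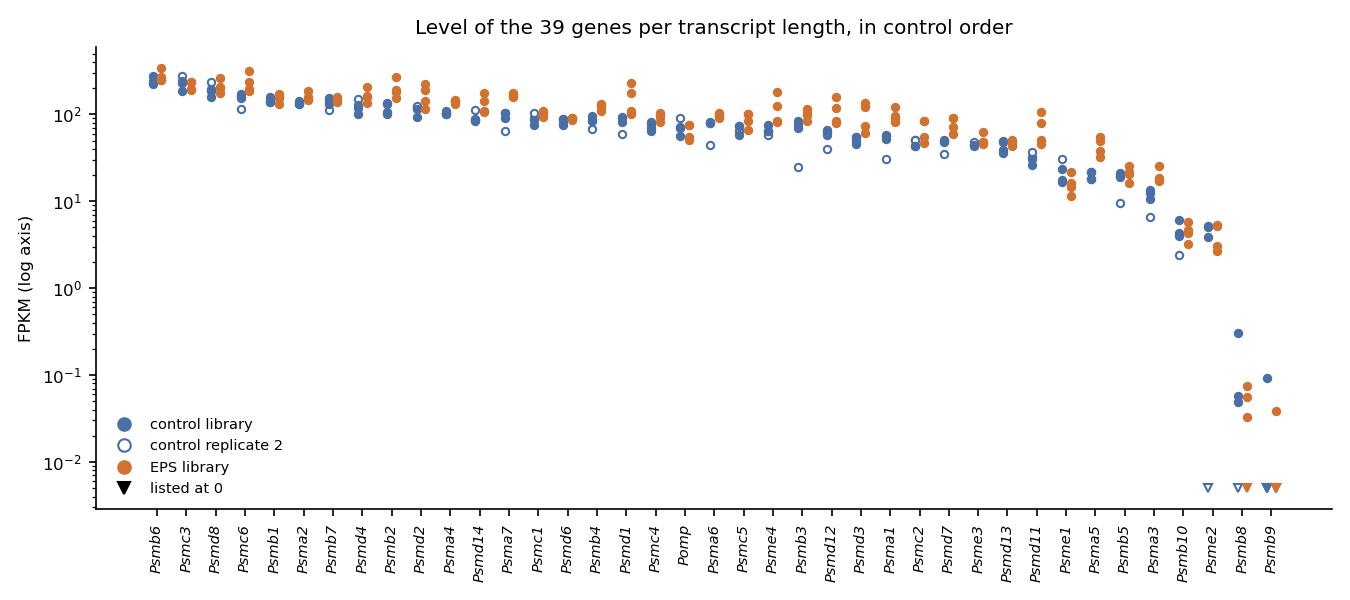
FPKM (vertical axis, logarithmic) of the 39 genes in each library, in the order of the control mean, controls in blue, control replicate 2 as open circles and EPS in orange. Triangles at the foot stand for libraries in which the gene is listed at 0. Levels fall from 243 FPKM for Psmb6 to 10.8 FPKM for Psma3 before the step to Psmb10 and the immunoproteasome genes.

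Among the genes that help build the proteasome, 1 rose. Of the 4 chaperones of core assembly, Psmg1 to Psmg4, 0 passed the test, and their median log2 fold change was -0.17. The sign of that median turned without EPS replicates 1 and 2, to 0.09, and with offsets and the replicate block, to 0.04. Psmg2, the most abundant of them by FPKM, read 21.4, 28.4, 20.1 and 19.4 CPM in the controls and 15.7, 11.9, 21.5 and 24.2 CPM in EPS (log2 fold change -0.20, SE 0.24). The gene that rose was Psmd5, 1 of the 3 base chaperones tested, which holds ATPase subunits during assembly of the base. Psmd5 read 46.6, 62.4, 45.0 and 44.1 CPM in the controls and 104, 82.3, 102 and 99.3 CPM in EPS. It rose with a log2 fold change of 1.02 (SE 0.16, adjusted p = 0.00778 by edgeR), and no EPS library stood out on the high side. The tissue-restricted core subunits Psma8 and Psmb11 were at no more than 0.24 CPM.

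Of 18 other proteins that bind the proteasome or carry substrates to it, with the lid subunit Sem1 counted among them, 2 rose and 0 fell. With the replicate block 8 rose. The median of their log2 fold changes was 0.49 (0.24 without EPS replicates 1 and 2). Zfand2a, a zinc finger protein induced by arsenite that binds the regulatory particle, read 63.1, 73.8, 54.1 and 61.3 CPM in the controls and 555, 1124, 213 and 203 CPM in EPS. EPS replicate 2 stood furthest from the controls, and the log2 fold change of 3.08 (SE 0.53, adjusted p = 0.0131 by edgeR) was 1.76 without EPS replicates 1 and 2. Ubqln2, a ubiquitin shuttle, read 25.7, 25.5, 27.1 and 27.4 CPM against 67.2, 76.8, 41.1 and 41.9 CPM. It rose with a log2 fold change of 1.09 (SE 0.23, adjusted p = 0.0328 by edgeR).

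Nfe2l1 (NRF1) is the membrane-bound transcription factor known to induce proteasome genes when proteasome activity is short. Its own transcript read 901, 624, 805 and 805 CPM in the controls and 999.8, 1052, 677 and 648 CPM in EPS, with a log2 fold change of 0.10 (SE 0.22, adjusted p = 0.844 by edgeR) that was -0.26 without EPS replicates 1 and 2. Its relative Nfe2l2, a regulator of the antioxidant response, read 191, 218, 212 and 180.1 CPM against 273, 372, 239 and 246 CPM. The groups of Nfe2l2 did not overlap, and its log2 fold change of 0.50 (SE 0.18) had an adjusted p of 0.168 by edgeR. Of the 16 genes of the Nfe2l1 activation pathway that were tested, 1 rose and 1 fell (5 and 1 with the block). Their median was 0.28, and it was -0.04 without EPS replicates 1 and 2 and 0.03 with the block and without pair 2.

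The gene of this pathway that rose was Mafg, a small Maf protein that pairs with both factors on DNA. It read 73.7, 68.1, 72.9 and 66.4 CPM in the controls and 274, 411, 158 and 148 CPM in EPS (log2 fold change 1.81, SE 0.31, adjusted p = 0.0136 by edgeR). The gene that fell was Fbxw7, a ubiquitin ligase receptor whose targets include Nfe2l1. It read 202, 221, 178 and 180.1 CPM in the controls and 85.2, 110.4, 88.6 and 99.4 CPM in EPS. The highest EPS library lay far under the lowest control, and the log2 fold change was -1.01 (SE 0.15, adjusted p = 0.00712 by edgeR). Sirt7 overlaps Mafg on the same strand and Gm37240 overlaps Fbxw7 on the opposite strand, at 13.1 and 18.4 CPM in the controls.

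Upstream of the proteasome, ubiquitin ligases select the substrates. Fbxo30, a ligase receptor known from muscle atrophy, read 49.6, 56.7, 41.4 and 46.5 CPM in the controls and 198, 318, 96.1 and 93.9 CPM in EPS (log2 fold change 1.89, SE 0.38, adjusted p = 0.0279 by edgeR). In Fbxo30, Mafg, Ubqln2 and Zfand2a the highest values were those of EPS replicates 1 and 2, as in Psmd11. Without that pair the log2 fold changes were 1.01 for Fbxo30, 1.10 for Mafg and 0.63 for Ubqln2.

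Of 18 interferon and antigen processing genes tested, 0 passed the test in either direction, with or without the block, at a median of 0.16 on the log2 scale (0.27 without EPS replicates 1 and 2). The most abundant by FPKM, B2m, the light chain of class I molecules, read 336, 871, 433 and 322 CPM in the controls and 243, 478, 393 and 371 CPM in EPS (log2 fold change -0.38, SE 0.33), and the log2 fold change was 0.02 without control replicate 2.

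Complexes of other functions give a scale for these values. The COP9 signalosome, whose subunits are related to those of the lid, had a median log2 fold change of -0.12 over 10 genes, the translation factor eIF3, also related to the lid, -0.08 over 13, and the chaperonin CCT 0.24 over 8. Without EPS replicates 1 and 2 these medians were -0.02, -0.02 and 0.18. In none of these complexes did a gene pass the test without the block, and with it 1 COP9 gene fell and 1 CCT gene rose. Their most abundant members by FPKM were Cops9 (-0.15, SE 0.28), Eif3e (-0.38, SE 0.16) and Tcp1 (0.04, SE 0.14). All EPS libraries lay above all controls in 1 of 10, 0 of 13 and 2 of 8 genes of the complexes, beside 19 of 37 for the proteasome. Against the 3 deep controls alone this held in 1 of 10, 0 of 13 and 6 of 8, beside 25 of 37. Fitted above 0 were 2 of 10, 5 of 13 and 8 of 8, beside 32 of 37. Whether the proteasome differs from these complexes was not tested.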

How the data were processed

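Per the submitters' processing notes, reads were handled with STAR 2.5.1, Cufflinks and Cuffdiff 2.2.1 on mm10. The sources used here do not give the annotation, the strand setting or filters. Libraries were made with a stranded total RNA kit per the labels' protocols. The deposited Cuffdiff table, per the file headers, gives for each gene and library an estimated count of fragments and an FPKM value, the count divided by length and library size. Of the estimated counts above 0, 93.3% were whole. Counts were rounded, and 46 genes that Cuffdiff skipped for depth were left out. The table names 48432 Ensembl genes, of which 48051 were given symbols from GENCODE vM21; Paaf1 was not matched.

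CPM are counts-per-million of each library's TMM-scaled size, without the skipped genes. Genes with enough counts (filterByExpr, minimum 10 in a library of median size, 15 in total) were tested with edgeR 4.0.16 in R 4.3.3 (TMM scaling, quasi-likelihood, Benjamini-Hochberg over all 13987 genes, threshold 0.05, no covariate). FPKM served for levels between genes and for limma 3.58.1. The log2 CPM used for medians and correlations had a prior count of 2. Length was implied by the ratio of CPM without TMM scaling to FPKM, and GC content came from the annotated transcript nearest to that length.

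The replicate numbers in the labels were checked for pairing: the deviations of same-numbered control and EPS libraries correlated at 0.300, 0.214, 0.286 and 0.297 across genes, and each control library correlated best with its own number. The pairing therefore comes from the data, and the fit with a replicate block is given where it changes a call.

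The members, the pathway lists, the markers and the comparisons were chosen with earlier results of these data known. Per-library values are given for the members with the highest and lowest fold of each subcomplex, the most abundant member, the immunoproteasome subunits with their partners, the activators and Pomp, to which the other genes that rose were added. Of each pathway list, up to 4 genes past the threshold with the smallest adjusted p are named, or the most abundant gene where none passed, and Nfe2l1 and Nfe2l2 always; 2 genes and the summary of the ubiquitin list are not reported here. Alternatives were other scaling, DESeq2 1.42.0, other filters, the block, offsets for length and GC content, limma on FPKM, and leaving out libraries.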

Additional observations from a re-analysis of the deposited data

Results flagged for a closer look

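In each gene and group, the library furthest from the others was set against Dixon's 95% critical value for 4 samples. Of 104 such groups, covering the tested members and the named pathway genes, 7 were past it, and chance gives about 1 in 20. The members Psmb8 and Psmb9, which did not pass the filter, were not screened. The shallow control replicate 2 accounted for 5 of the 7. It read 170 CPM for Psma4, where the other controls lay between 123 and 127 CPM, 56.7 CPM for Psma6 (others 74.5 to 76.9 CPM) and 11.3 CPM for Psmb3 (others 47.8 to 51.1 CPM). It read 213 CPM for Psmd14 (others 115 to 116 CPM) and 62.4 CPM for Psmd5 (others 44.1 to 46.6 CPM). The other 2 were Psma6 in EPS replicate 3, at 99.2 CPM beside 93.8 to 94.5 CPM, and Psmb11 in control replicate 4, at 0.143 CPM beside 0 in the other controls, which is 3 fragments.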

How the results depend on the processing

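The median log2 fold change of the members stayed between 0.31 and 0.48 over the 19 alternatives, and 0 members were called lower in each of them. The counts of calls moved: beside 322 higher, 106 lower and 5 members higher, DESeq2 gave 633, 294 and 11, the replicate block 1023, 668 and 14, and length and GC offsets 539, 254 and 11. Offsets with the replicate block gave 1154, 831 and 18, and the replicate block without pair 2, added after seeing the data, 1290, 1167 and 19. With limma on log2(FPKM + 0.1) the counts were 102, 28 and 1, with a pseudocount of 1 they were 121, 36 and 1, and with no low-count filter 162 genes were called lower. Leaving out 1 library gave 92 to 427 higher, 22 to 167 lower and 0 to 6 members higher. Of the members called, Psma5 lost its call in 4 of the 19 alternatives, Psma1 in 6, Psmd11 in 7, Psma7 in 8 and Psma3 in 12, and each kept a log2 fold change of at least 0.56. The block changed no call of a named gene beside those given in the text. The causes of these changes were not tested.

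Small log2 fold changes turned sign. With the replicate block Pomp was 0.0042, and in the replicate block without pair 2 Pomp was 0.080 and Nfe2l1 -0.15. With offsets Psmb10 was 0.059, Psme2 0.0020 and Pomp 0.012, and with offsets and the replicate block Psme2 was 0.032, Pomp 0.040 and Cops9 0.021. With limma at pseudocounts of 0.1 and 1, Psmb10 was 0.13 and 0.10 and Psme2 1.15 and 0.43, and with no filter Tcp1 was -0.00593. Without EPS replicates 1 and 2 Psmb10 was 0.12, Psme2 0.24, Pomp 0.19, Psmg2 0.14, Cops9 0.23 and Nfe2l1 -0.26. Over the fits that left out 1 library the range was -0.21 to 0.048 for Psmb10, -0.30 to 0.047 for Psme2, -0.12 to 0.073 for Pomp, -0.56 to 0.025 for B2m, -0.39 to 0.019 for Cops9 and -0.031 to 0.19 for Nfe2l1. In control replicate 2, with 354490 fragments, 1 fragment equals 2.84 CPM, so its values of Psmb5 (2 fragments), Psmb10 (1 fragment) and Psme2 (0) rest on few fragments.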

Other observations

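The 4 fibroblast markers summed to between 5.67 and 11.2 CPM in the controls and between 14.004 and 22.4 CPM in EPS, so the sums did not overlap. Most of each sum was Pdgfra, which averaged 8.16 CPM in the controls and 16.5 CPM in EPS. Dpt and Lum averaged lower in EPS, at 0.35 and 0.012 CPM beside 0.47 and 0.048 CPM. Col15a1 averaged 0.17 CPM in EPS beside 0.10 CPM in the controls. Pdgfra, the fibroblast marker that was tested, had a log2 fold change of 0.91, with an adjusted p of 0.0542 by edgeR and of 0.0141 with the block. The part of this difference in the proteasome values was not tested. The 3 endothelial markers summed to at most 0.47 CPM in the controls and 13.2 CPM in EPS, where Pecam1 alone read 2.16 and 10.8 CPM in replicates 1 and 2. The 3 adipocyte markers summed to at most 0.16 and 0.32 CPM, and the 4 neuronal and Schwann cell markers to at most 2.84 and 1.44 CPM. The 6 markers of cycling myoblasts summed to between 373 and 788 CPM in the controls and between 291 and 645 CPM in EPS, and 0 of 6 passed the test. Among the immune markers, Cd68 read 8.07, 27.0, 2.07 and 2.12 CPM in EPS replicates 1 to 4. In the controls it read 1.46, 8.51, 1.89 and 1.48 CPM. Itgam, the other immune marker that was tested, went the other way, with a log2 fold change of -0.91 (SE 0.70). Its adjusted p was 0.528 by edgeR and 0.0426 with the block.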
